A study of Homo sapiens with 18 samples.

Results

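CCS1477 (inobrodib) moved 3829 of 12769 genes by a different amount in H460 than in H2023, a pair of human lung cancer cell lines that the labels both class as NRF2-activated. Replication-dependent histone genes, DNA replication genes and mitotic genes fell further in H2023. Amino acid response genes driven by ATF4 were lower in the H460 response. A set of growth factor, integrin and epithelial genes, led by AREG, had a higher response in H460. Some rose in H460 and fell in H2023, some rose further in H460, and some fell less there. Another set, with FZD4, TUBB4A, PAG1 and CDH7, fell in H460 and rose in H2023.

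The quantity described is a difference of differences. For each gene, the log2 change of CCS1477 against DMSO in H460 was taken, and the same change in H2023 was subtracted. A positive value therefore means a higher response in H460, which can be a larger rise, a smaller fall or a change of opposite direction. The genes are the 15468 gene rows found in both lines' tables, out of 20374 gene rows found in the tables of the study's 3 lines. Of these, 12769 reached at least 1 CPM (reads scaled to 1000000 per library) in at least 3 of the 6 libraries of each line and were tested, 429 reached it in H460 alone, 980 in H2023 alone, and 1290 in neither.

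The study holds 18 RNA-seq libraries of 3 lung cancer lines, and 12 of them are used for the difference. H460, labelled large cell lung carcinoma, had 3 libraries with 5 µM CCS1477 and 3 with DMSO, the solvent. H2023, labelled squamous, had 3 libraries of each as well, and all cells were harvested at 24 h. The series text gives the dose as 5 mM, while the sample descriptions say 5 µM. The labels do not say whether replicates came from separate cultures, so the p-values measure the spread between these samples, which may be technical. The third line, ABC-1, is called wild type and enters 1 alternative fit.

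CCS1477 binds the bromodomains of p300 and CBP, the paired acetyltransferases that acetylate histones at enhancers and act as coactivators for many transcription factors. NRF2, encoded by NFE2L2, is a transcription factor for antioxidant and detoxification genes. KEAP1 normally marks NRF2 for degradation, and lung cancers that lose this control keep NRF2 targets high. NRF2 is known to recruit CBP and p300 to its target genes.

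Library depth ran from 26652289 to 33568195 reads in H460 and from 15352630 to 18261164 reads in H2023. Counting error at 1 CPM was 17.3% to 19.4% in H460 and 23.4% to 25.5% in H2023. Replicate 1 of CCS1477-treated H460 stood apart: 0.795% of its reads came from mitochondrial genes, against 1.77% to 2.06% in the other 5 H460 libraries and 1.54% to 1.82% in H2023. In it, 17 genes lay more than 4 times below both other libraries of the group, where both held over 5 CPM. Each of the other 11 libraries had 0 to 4 such genes. The 17 included mitochondrial genes and others such as ATG5, at 3.78 CPM against 17.0 and 19.5 CPM. Replicate 1 of DMSO-treated H460 stood apart in a few genes: 10 genes over 5 CPM were more than 4 times above both other libraries of the group, against 0 to 3 such genes in each of the other 11 libraries. They included IGF2, at 300.9 CPM against 0.402 and 0.885 CPM, RGS5, at 51.0 CPM against 1.64 and 1.88 CPM, and KRT7, IFIT1 and the histone gene H3C3. Without CCS1477 replicate 1 of H460 the number of differing genes was 3904, and without DMSO replicate 1 it was 3431. Leaving out that DMSO library gave 37 histone, 29 DNA replication, 21 mitosis and 24 ATF4 genes that differed.

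The files hold one table per line, each scaled on its own, so levels are compared within a line. On the deposited scale the median gene changed by 0.01 in H460 and -0.01 in H2023, against 0.08 in H460 and 0.04 in H2023 on CPM from library totals, so a small fall on the deposited scale can come with overlapping or slightly higher CPM. Squamous markers were near 0 in H2023 and their summed level was 1.28 CPM with CCS1477 and 2.97 CPM with DMSO, with TP63, PKP1 and TRIM29 each averaging under 2 CPM, which goes against the squamous label. Of the lung adenocarcinoma markers, 2 had a row in H2023. NAPSA, an aspartic protease of alveolar cells, averaged 0.142 CPM with CCS1477 and 0.248 CPM with DMSO, while KRT7, a simple-epithelium keratin, stood at 608 ± 25.5 CPM in CCS1477-treated H2023 and 1573 ± 32.2 CPM in DMSO-treated H2023 (SD, n = 3 each). Leukocyte and endothelial markers stayed under 3 CPM each in both lines.

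The difference was called, at an adjusted p of 0.05 in limma, for 3829 of 12769 genes, or 30% of those tested. It was higher in H460 for 2299 genes (18%) and lower for 1530 (12%). Most differences were of modest size, with a median absolute value of 0.21 on the log2 scale and a median standard error of 0.11, and 535 called genes differed by at least 1. CCS1477 by itself changed 7479 genes in H460 (58.6%), with 30.4% rising and 28.1% falling, and 7711 in H2023 (60.4%), with 28.7% rising and 31.7% falling. The responses followed each other across genes, with a Pearson r of 0.63 over 12769 genes, which share their libraries and are not independent.

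Genes can differ in response in several ways, and the called genes fell into all of them. Of the 4998 genes that changed in the same direction in both lines (2493 rose, 19.5%, and 2505 fell, 19.6%), 1368 differed in size. Among those that rose in both, 303 rose further in H460 and 291 rose further in H2023. Among those that fell in both, 237 fell further in H460 and 537 fell further in H2023. A further 887 called genes had changed in H460 without a call in H2023, 1056 had changed in H2023 without a call in H460, and 32 had no call in either. The remaining 486 genes (3.81%) changed in opposite directions, 289 (2.26%) rising in H460 and falling in H2023, and 197 (1.54%) the reverse. The plot of one response against the other shows these classes.

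**Figure D1:**
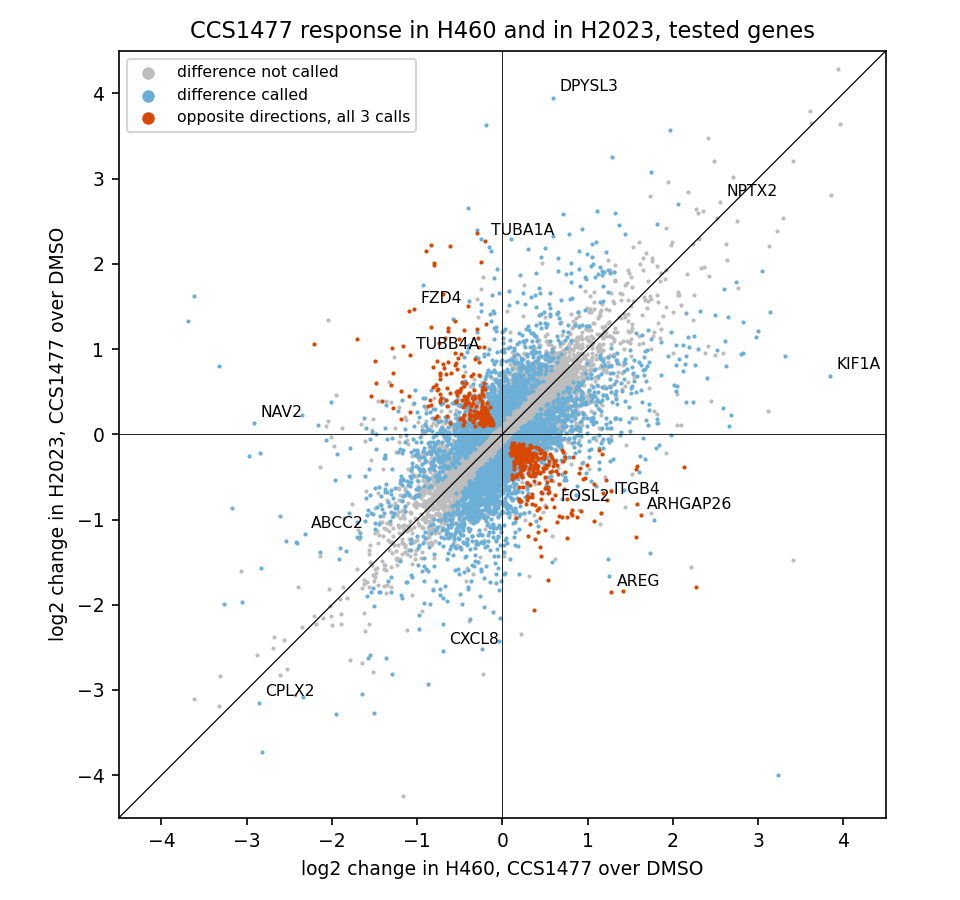
Log2 change of CCS1477 over DMSO in H460 (horizontal axis) and in H2023 (vertical axis), with 1 point per gene and the line of equal response drawn. The plot holds 12765 tested genes, and a further 2 lie outside the axes. Grey genes have no call of the difference, blue genes have one, and the 486 genes with called changes of opposite direction (orange) lie at the upper left and lower right.

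Among the 486, only 11 moved by at least 1 on the log2 scale in both lines. They included AREG, CYP24A1, DAPK1, DLG2, FZD4, KCTD16, NBEAP1, OLFML2A, RHOV and a row known only by its identifier, ENSG00000263020, and they were listed after their values had been seen. AREG encodes amphiregulin, a ligand of the EGF receptor (chromosome 4, 74445134 to 74455009, plus strand, GRCh38). It stood at 4.38, 3.84 and 4.66 CPM in CCS1477-treated H460, against 1.80, 1.39 and 1.66 CPM in DMSO-treated H460. In H2023 it stood at 23.4, 21.1 and 23.5 CPM with CCS1477, against 78.8, 78.5 and 80.7 CPM with DMSO. The treated and control libraries did not overlap in either line, and the order was reversed between the lines. The change was 1.27 in H460 and -1.85 in H2023 on the log2 scale, a difference of 3.12 ± 0.14 (SE, adjusted p = 1.16e-08).

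Genes were then ranked by the smaller absolute change of the lines if their mean was at least 5 CPM in the higher group of each line. AREG missed this floor in H460, and clone, antisense, pseudogene and small RNA genes were left out. Of those that rose in H460 and fell in H2023, the leading 8 included genes of adhesion and of GTPase signalling. ARHGAP26, a GTPase-activating protein (chromosome 5, 142770377 to 143229011, plus strand), had 10.3, 10.4 and 10.2 CPM in CCS1477-treated H460, against 2.78, 2.96 and 3.57 CPM in DMSO-treated H460. Its levels in H2023 were 103, 88.9 and 92.02 CPM with CCS1477, against 174, 176 and 177 CPM with DMSO, and the difference was 2.57 ± 0.11 (adjusted p = 9.16e-09). ITGB4 encodes the integrin beta chain of hemidesmosomes, the junctions that anchor epithelial cells to the basement membrane. It had 10.7, 8.95 and 8.89 CPM in CCS1477-treated H460, against 4.05, 3.98 and 3.29 CPM in DMSO-treated H460, and 138, 135 and 131 CPM in CCS1477-treated H2023, against 204, 242 and 223 CPM in DMSO-treated H2023. The ITGB4 difference was 2.01 ± 0.13 (adjusted p = 1.83e-07), and 6225 bases of the gene overlap GALK1 on the other strand. FOSL2, an AP-1 subunit, had 93.1, 83.5 and 83.7 CPM in CCS1477-treated H460, against 55.2, 53.6 and 52.9 CPM in DMSO-treated H460, and 152, 149 and 145 CPM in CCS1477-treated H2023, against 262, 266 and 249.8 CPM in DMSO-treated H2023. All of these separated treated from control libraries in both lines, in opposite order.

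Other genes of that group showed the same crossing. ZNF703, a transcriptional corepressor, changed by 0.76 in H460 and by -0.97 in H2023. TGFBR2, the type II TGF-beta receptor, changed by 0.62 in H460 and by -0.71 in H2023. DPYD, which degrades pyrimidines, changed by 0.73 in H460 and by -0.65 in H2023, and the collagen gene COL27A1 by 0.82 in H460 and -0.88 in H2023.

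Under the same floor, the opposite crossing, a fall in H460 with a rise in H2023, was led by FZD4. This gene (chromosome 11, 86945679 to 86955391, minus strand) encodes a receptor of the WNT and norrin pathways. FZD4 stood at 28.99, 27.4 and 27.1 CPM in CCS1477-treated H460, against 52.0, 54.7 and 56.1 CPM in DMSO-treated H460. In H2023 it stood at 14.3, 12.3 and 11.6 CPM with CCS1477, against 4.26, 4.38 and 4.16 CPM with DMSO. Its difference was -2.51 ± 0.11 (adjusted p = 7.69e-09), and 7232 bases overlap PRSS23 on the other strand. TUBB4A, a beta-tubulin found mostly in the nervous system, had 47.1, 52.0 and 46.7 CPM in CCS1477-treated H460, against 95.04, 98.7 and 101 CPM in DMSO-treated H460, and 26.2, 23.8 and 24.3 CPM in CCS1477-treated H2023, against 12.3, 13.0 and 12.0 CPM in DMSO-treated H2023. Reads of tubulin genes can match several family members, and how such reads were assigned is not given in the sources used here.

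The membrane adaptor PAG1 and the cadherin CDH7 crossed in the same sense, with differences of -3.05 ± 0.09 and -2.81 ± 0.17 on the log2 scale. PAG1 averaged 85.8 ± 2.57 CPM in CCS1477-treated H460 and 152 ± 0.792 CPM in DMSO-treated H460, and 48.2 ± 2.87 CPM in CCS1477-treated H2023 and 10.3 ± 1.06 CPM in DMSO-treated H2023 (SD, n = 3 each). FAM210B, VWA5A, DDIT4L and WDR25 completed the group of 8, with differences of -1.81, -1.42, -1.47 and -1.52. WDR25 overlaps WARS1, which also fell in H460, on the other strand.

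**Figure D2:**
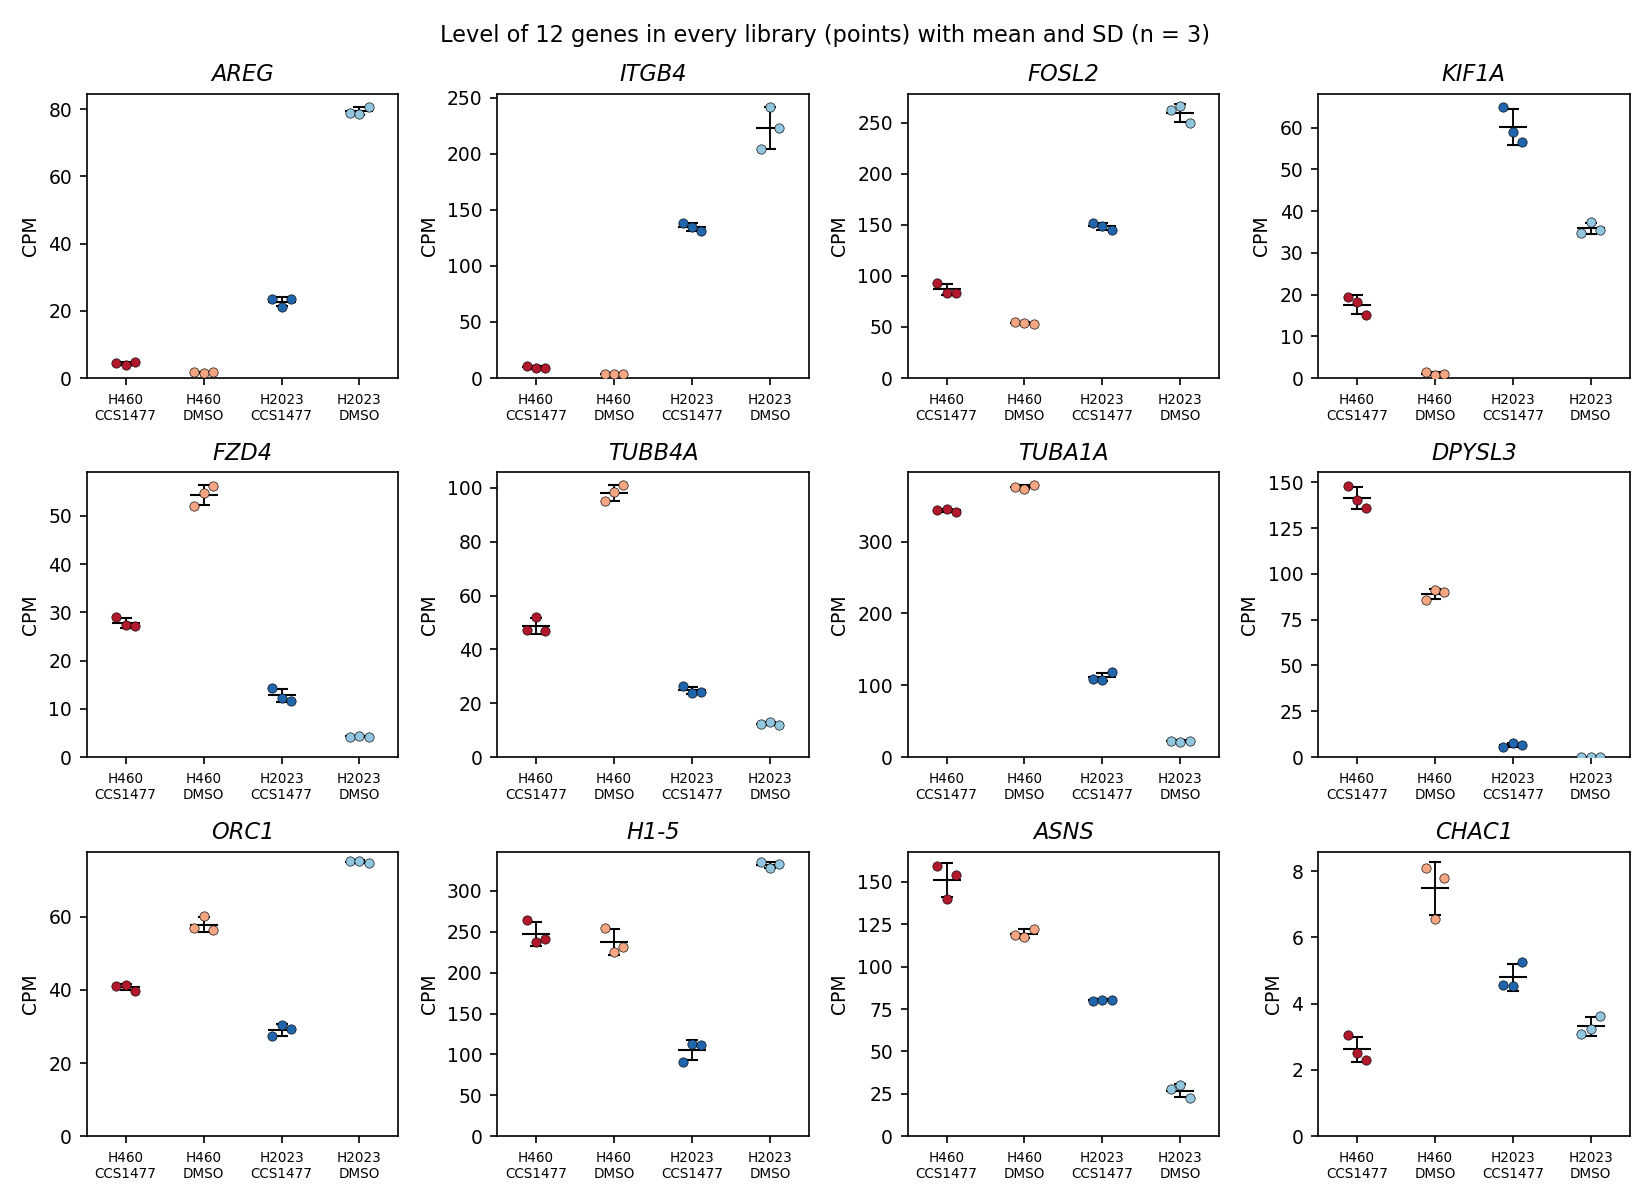
Level of 12 genes in CPM in each library (points) with the mean and SD (bars, n = 3), with CCS1477 left of DMSO within each line and H460 left of H2023. AREG, ITGB4 and FOSL2 were higher with CCS1477 in H460 and lower with CCS1477 in H2023, FZD4, TUBB4A, TUBA1A and CHAC1 were the reverse, and H1-5 separated by treatment in H2023 only.

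Differences past 2 on the log2 scale also arose where both lines moved in the same direction by unequal amounts. KIF1A, a kinesin that carries synaptic vesicle precursors along axons, stood at 19.5, 18.2 and 15.1 CPM in CCS1477-treated H460, against 1.501, 0.767 and 0.955 CPM in DMSO-treated H460. In H2023 it stood at 64.9, 58.9 and 56.6 CPM with CCS1477, against 34.8, 37.3 and 35.5 CPM with DMSO. The rise was 3.84 ± 0.17 in H460 and 0.69 ± 0.17 in H2023 (SE), and the difference was 3.16 ± 0.23 (adjusted p = 6.24e-07). DPYSL3, which encodes a collapsin response mediator protein of growing neurons, had 148, 140.4 and 136 CPM in CCS1477-treated H460, against 85.8, 91.1 and 89.9 CPM in DMSO-treated H460, and 5.67, 7.74 and 6.79 CPM in CCS1477-treated H2023, against 0.112, 0.274 and 0.195 CPM in DMSO-treated H2023. The DMSO level of DPYSL3 in H2023 rests on few reads, and its difference was -3.35 ± 0.18 (adjusted p = 4.67e-08).

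TUBA1A, an alpha-tubulin, had 344, 345 and 342 CPM in CCS1477-treated H460, against 376, 373 and 378 CPM in DMSO-treated H460, and 108, 108 and 118 CPM in CCS1477-treated H2023, against 22.99, 20.6 and 22.8 CPM in DMSO-treated H2023. It fell in H460, with a log2 change of -0.20, and rose by 2.27 in H2023, a difference of -2.47 ± 0.06 (adjusted p = 1.10e-10). NUPR1, a stress-responsive chromatin protein, fell in both lines, with changes of -3.17 in H460 and -0.86 in H2023, and its difference of -2.31 is a deeper fall in H460, where it stood at 0.268, 0.0328 and 0.124 CPM with CCS1477, against 1.84, 2.48 and 2.05 CPM with DMSO, a level of few reads. RGPD6 had a called difference of 7.22, but its H460 libraries ranged from 0 to 34.9 CPM and it has near-identical copies, so its value is uncertain, and the call was lost when single libraries were left out.

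Cell cycle genes separated the lines as a group. CCS1477 lowered histone, replication and mitotic genes in H2023, and most of the same genes moved less, or not past the test, in H460. Since these are bulk libraries, fewer cycling cells and less RNA per cycling cell cannot be told apart. Of 40 tested replication-dependent histone genes, which package newly copied DNA and are made in S phase, 35 differed and all 35 were higher in the H460 response. Their median difference was 1.08, against 0.03 over all tested genes, of which 30% differed, 18% higher in the H460 response. All 40 fell in H2023, where the median change was -1.25 and 31.7% of all tested genes fell. In H460, 15 fell and 1 rose, with a median change of -0.15, where 28.1% of all tested genes fell and 30.4% rose. Without replicate 1 of CCS1477-treated H460, 35 differed as well and 20 fell in H460. Scaling by library totals gave 12 falls and 3 rises in H460 and 39 falls in H2023. Histone genes are alike in coding sequence and lie close together, and most histone transcripts lack poly(A) tails, so their levels depend on how RNA was selected and how reads were assigned.

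Of the linker histones, H1-5 had 264, 238 and 241 CPM in CCS1477-treated H460, against 255, 225 and 232 CPM in DMSO-treated H460. In H2023 it had 91.3, 113 and 112 CPM with CCS1477, against 336, 328 and 333 CPM with DMSO. The H460 libraries overlapped between treatments and the H2023 libraries did not, with a difference of 1.70 ± 0.10 (adjusted p = 1.28e-07). H3C2, a core histone H3 gene, averaged 367 ± 19.6 CPM with CCS1477 and 396 ± 14.6 CPM with DMSO in H460, and 85.7 ± 5.22 CPM with CCS1477 and 241 ± 3.94 CPM with DMSO in H2023 (SD, n = 3 each). H2AC6 was the one histone gene called as risen in H460 (0.47), and it fell in H2023 (-0.69). Adding the reads of separately listed transcript rows reduced the H2AC6 difference to 0.70, against 1.16 without them.

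Of 35 tested DNA replication genes, 30 differed (85.7%, against 30% of all tested genes), all 30 higher in the H460 response. The list's median difference was 0.52. In H460, 21 fell and 4 rose (median change -0.23), whereas in H2023 32 fell and 0 rose (median change -0.68). The shares over all tested genes were 28.1% falling and 30.4% rising in H460, and 31.7% falling and 28.7% rising in H2023. Scaling by library totals gave 20 falls and 6 rises in H460 and 32 falls and 1 rise in H2023. Leaving out replicate 1 of CCS1477-treated H460 gave 29 called. ORC1, the largest subunit of the origin recognition complex, had 41.0, 41.4 and 39.8 CPM in CCS1477-treated H460, against 56.8, 60.2 and 56.4 CPM in DMSO-treated H460, and 27.4, 30.5 and 29.3 CPM in CCS1477-treated H2023, against 75.4, 75.2 and 74.7 CPM in DMSO-treated H2023. It fell in both lines, further in H2023, with a difference of 0.84 ± 0.07 (adjusted p = 1.26e-06).

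MCM2, a subunit of the replicative helicase, had 119, 113 and 112 CPM in CCS1477-treated H460, against 143, 145 and 145 CPM in DMSO-treated H460, and 108, 114 and 109 CPM in CCS1477-treated H2023, against 225, 232 and 226 CPM in DMSO-treated H2023. The MCM2 difference was 0.69 ± 0.05 (adjusted p = 6.91e-07). CDC6, which loads that helicase onto origins, had 113, 111 and 111 CPM in CCS1477-treated H460, against 108, 107 and 106 CPM in DMSO-treated H460, a change of -0.01 ± 0.04 that did not pass the test, although its treated libraries all lay slightly above its control libraries in CPM. In H2023 the CDC6 level was 84.8, 89.8 and 84.1 CPM with CCS1477, against 131, 136 and 128 CPM with DMSO. GINS4 and RFC5, helicase and clamp-loader subunits, and POLD1, the catalytic subunit of DNA polymerase delta, rose in H460 by 0.22, 0.22 and 0.20 and fell in H2023 with log2 changes of -0.47, -0.38 and -0.24. RRM2, RRM1, POLE and POLE2 were among the 5 members with no call of the difference.

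Of 31 tested G2/M and mitosis genes, 22 differed (71%, against 30% of all tested genes), all higher in the H460 response. The list's median difference was 0.40, and without replicate 1 of CCS1477-treated H460 the number that differed was 25. In H460, 16 fell and 4 rose, and in H2023, 28 fell and 1 rose, with 12 falls and 6 rises in H460 under scaling by library totals. Of all tested genes, 28.1% fell and 30.4% rose in H460, and 31.7% fell and 28.7% rose in H2023. UBE2C, the ubiquitin-conjugating enzyme of the anaphase-promoting complex, had 73.2, 77.3 and 68.7 CPM in CCS1477-treated H460, against 75.8, 79.1 and 78.6 CPM in DMSO-treated H460. In H2023 it had 31.2, 31.6 and 31.5 CPM with CCS1477, against 68.8, 68.3 and 69.4 CPM with DMSO, and the difference was 1.01 ± 0.06 (adjusted p = 1.20e-07). The H460 libraries of UBE2C overlapped in CPM, although its small fall of -0.16 passed the test on the deposited scale. TOP2A, the topoisomerase that separates sister chromatids, did not pass the test in H460 (-0.00) and fell in H2023 (-0.80).

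ANLN, a scaffold of the cytokinetic ring, crossed in direction. It had 354, 364 and 366 CPM in CCS1477-treated H460, against 279.9, 278 and 283 CPM in DMSO-treated H460, and 402, 416 and 403 CPM in CCS1477-treated H2023, against 490.0, 486 and 487 CPM in DMSO-treated H2023. The ANLN difference was 0.61 ± 0.04 (adjusted p = 4.02e-07). AURKB, the kinase of the chromosomal passenger complex, and KIF2C, a microtubule-depolymerizing kinesin, also rose in H460, by 0.18 and 0.29, and fell in H2023, with log2 changes of -0.28 and -0.26. KIF20A and HMMR fell in both lines with no call of the difference, KIF20A at -0.61 in H460 and -0.53 in H2023 (95% interval of the difference -0.21 to 0.05), and HMMR at -0.55 in H460 and -0.40 in H2023 (-0.33 to 0.02).

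Homologous recombination and Fanconi genes, which repair broken and crosslinked DNA, followed the same pattern. Of 28 tested, 18 differed (64.3%, against 30% of all tested genes), all higher in the H460 response. The list's median difference was 0.44, and 16 differed without replicate 1 of CCS1477-treated H460. BLM, a RecQ helicase, changed by 0.15 in H460, short of the test, and by -0.59 in H2023. Of 22 tested G1 cyclins, cyclin-dependent kinases and inhibitors, 9 differed (40.9%, against 30% of all tested genes), 8 of them higher in the H460 response. E2F1, E2F7 and E2F8, factors that activate or repress cell cycle genes, differed by 0.70, 0.52 and 0.75. MYC changed by -0.29 ± 0.04 in H460 and -0.31 ± 0.04 in H2023, and its difference of 0.02 ± 0.05 was not called, with a 95% interval of -0.10 to 0.13.

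Promoters were searched for motifs through which genes of these groups are known to be controlled, and 4 promoters of genes with differing responses are printed here. E2F factors bind variants of TTTNNCGC, and the MuvB complex binds the cell cycle homology region (CHR), TTTGAA. ATF4 with a C/EBP partner binds the amino acid response element TGATGNAA, and NF-kB binds variants of GGGNNTTCC. Each window holds 250 bases before and 50 bases after the gene's start and comes from the RefSeq annotation of GRCh38.p14. The promoters are those of the called member with the smallest p in its list that holds the motif, and capitals mark every match on either strand. The DNA replication gene is MCM2 (chr3:127598161-127598460, plus strand), the mitotic gene ANLN (chr7:36389612-36389911, plus strand), the amino acid response gene ASNS (chr7:97872359-97872658, minus strand), and the NF-kB target BIRC3 (chr11:102317234-102317533, plus strand).
MCM2: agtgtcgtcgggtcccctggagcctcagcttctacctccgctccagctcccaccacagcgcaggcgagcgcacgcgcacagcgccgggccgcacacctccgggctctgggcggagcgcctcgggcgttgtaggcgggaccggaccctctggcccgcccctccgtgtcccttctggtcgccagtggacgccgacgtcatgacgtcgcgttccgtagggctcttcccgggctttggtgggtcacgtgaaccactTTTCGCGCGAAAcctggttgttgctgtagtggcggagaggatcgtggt
ANLN: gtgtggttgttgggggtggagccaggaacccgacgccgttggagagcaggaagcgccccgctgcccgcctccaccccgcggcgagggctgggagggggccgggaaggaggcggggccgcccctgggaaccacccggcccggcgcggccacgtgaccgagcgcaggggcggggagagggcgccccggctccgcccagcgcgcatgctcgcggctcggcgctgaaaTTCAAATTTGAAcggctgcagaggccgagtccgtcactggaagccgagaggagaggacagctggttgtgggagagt
ASNS: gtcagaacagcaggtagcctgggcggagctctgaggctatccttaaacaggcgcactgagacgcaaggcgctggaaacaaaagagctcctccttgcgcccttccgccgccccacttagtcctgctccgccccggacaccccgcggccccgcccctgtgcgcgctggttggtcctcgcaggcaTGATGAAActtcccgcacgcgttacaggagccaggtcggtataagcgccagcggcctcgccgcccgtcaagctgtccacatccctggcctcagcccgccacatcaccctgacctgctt
BIRC3: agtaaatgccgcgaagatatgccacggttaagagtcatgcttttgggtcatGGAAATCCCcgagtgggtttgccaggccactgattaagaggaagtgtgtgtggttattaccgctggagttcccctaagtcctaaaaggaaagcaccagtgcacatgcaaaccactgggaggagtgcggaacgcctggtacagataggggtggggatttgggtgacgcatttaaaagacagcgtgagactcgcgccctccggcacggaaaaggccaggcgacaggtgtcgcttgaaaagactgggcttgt
The MCM2 window holds 2 E2F matches on opposite strands that overlap, and the ANLN window holds 2 CHR matches on opposite strands that adjoin. The ASNS and BIRC3 windows hold 1 match each.

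The motifs were then counted in all 9797 tested genes that have an entry, with both strands searched. The E2F motif was in 19 of 31 DNA replication promoters, against 11.1% of all tested promoters, and the CHR motif in 15 of 25 mitotic promoters, against 9.56%. The amino acid response element was in 5 of 24 promoters of the ATF4 list, against 1.54%, and the NF-kB motif in 6 of 12 promoters of its targets, against 8.26%. Promoters of genes with a higher response in H460 held the CHR motif in 11.7% and the E2F motif in 12.4%. Promoters of genes with a lower response in H460 held them in 9.51% and 9.34%, and those with no call in 8.98% and 11.0%. These shares lie close to the background. Over all 27305 promoters of the table, the shares were 6.9% for the E2F motif, 15.4% for the CHR motif, 3.67% for the amino acid response element and 6.6% for the NF-kB motif. A match describes the letters of the window and is not a binding site.

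Amino acid response genes ran the other way. ATF4 is translated under amino acid or endoplasmic reticulum stress and switches on amino acid synthesis, transport and tRNA charging. Of 30 tested genes of this response, 24 differed (80%, against 30% of all tested genes), 21 lower and 3 higher in the H460 response. The list's median difference was -0.41. In H460, 23 fell and 5 rose (median change -0.45), and in H2023, 10 fell and 13 rose (median change -0.02). Among all tested genes, 28.1% fell and 30.4% rose in H460, and 31.7% fell and 28.7% rose in H2023. The count was also 24 without replicate 1 of CCS1477-treated H460. ATF4 itself fell with a log2 change of -0.47 in H460 and stood at -0.05 in H2023, where it did not pass the test.

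ASNS, asparagine synthetase, had 159, 140.0 and 154 CPM in CCS1477-treated H460, against 119, 117 and 122 CPM in DMSO-treated H460. In H2023 it had 79.5, 80.5 and 80.4 CPM with CCS1477, against 27.8, 30.3 and 22.6 CPM with DMSO. It rose in both lines, further in H2023, with a difference of -1.26 ± 0.12 (adjusted p = 5.39e-06). CHAC1, which degrades glutathione and is a marker of this response, had 3.04, 2.52 and 2.30 CPM in CCS1477-treated H460, against 8.10, 6.57 and 7.78 CPM in DMSO-treated H460, and 4.56, 4.55 and 5.27 CPM in CCS1477-treated H2023, against 3.08, 3.23 and 3.64 CPM in DMSO-treated H2023. It crossed in direction, with a difference of -1.99 ± 0.19 (adjusted p = 6.23e-06).

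Among serine synthesis genes, PHGDH and PSAT1 crossed as well. PHGDH, the first enzyme of that route, had 131, 115 and 113 CPM in CCS1477-treated H460, against 137, 134 and 141 CPM in DMSO-treated H460, and 62.1, 64.6 and 65.4 CPM in CCS1477-treated H2023, against 37.5, 38.3 and 38.2 CPM in DMSO-treated H2023. PSAT1, the next enzyme, changed by -0.46 in H460 and 0.18 in H2023, whereas PSPH, the last, fell with log2 changes of -0.32 in H460 and -0.30 in H2023 with no call of the difference. WARS1, tryptophanyl-tRNA synthetase, had 158, 156 and 154 CPM in CCS1477-treated H460, against 372, 364 and 357 CPM in DMSO-treated H460, and 65.9, 67.6 and 70.1 CPM in CCS1477-treated H2023, against 65.9, 71.8 and 65.2 CPM in DMSO-treated H2023. Its libraries separated in H460 and overlapped in H2023, with a difference of -1.25 ± 0.06 (adjusted p = 2.17e-08).

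DDIT3 (CHOP), STC2, ALDH1L2 and GARS1 also fell in H460, with log2 changes of -0.54, -0.79, -0.73 and -0.34, and rose in H2023, by 0.50, 0.19, 0.38 and 0.15. DDIT3 overlaps MARS on the other strand and another gene on its own. SLC3A2, the heavy chain of several amino acid transporters, was the exception that rose in H460 (0.20) and fell in H2023 (-0.15), though scaling by library totals removed the call of its fall. DDIT4, an inhibitor of mTORC1 signalling, fell in both lines and further in H2023, with a difference of 1.04. Genes of the endoplasmic reticulum chaperones and unfolded protein response leaned the other way from this list. Of 22, 11 differed (50%, against 30% of all tested genes), 10 of them higher in the H460 response, with a median of 0.19.

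NRF2 targets of drug metabolism and transport differed in both directions. Of 26 tested drug metabolism and transport genes, 18 differed (69.2%, against 30% of all tested genes), 8 higher and 10 lower in the H460 response. The list's median difference was 0.00. In H460, 17 fell and 2 rose, and in H2023, 19 fell and 3 rose. Over all tested genes, 28.1% fell in H460 and 31.7% in H2023. Of the 26, 15 fell in both lines, as did 19.6% of all tested genes, and 2 changed in opposite directions. Without replicate 1 of CCS1477-treated H460, 16 differed. ABCC2, an export pump for glutathione conjugates, had 49.8, 55.6 and 52.0 CPM in CCS1477-treated H460, against 237, 254 and 255 CPM in DMSO-treated H460, and 139, 144 and 138 CPM in CCS1477-treated H2023, against 299.8, 307 and 308 CPM in DMSO-treated H2023. It fell further in H460, with a difference of -1.15 ± 0.06 (adjusted p = 5.46e-08).

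ALDH3A1 and AKR1B10 went the other way. ALDH3A1, an aldehyde dehydrogenase, had 437, 360.3 and 361 CPM in CCS1477-treated H460, against 612, 627 and 638 CPM in DMSO-treated H460, and 124, 124 and 115 CPM in CCS1477-treated H2023, against 375, 394 and 388 CPM in DMSO-treated H2023. AKR1B10, an aldo-keto reductase, had 874, 806 and 846 CPM in CCS1477-treated H460, against 1449, 1471 and 1542 CPM in DMSO-treated H460, and 1039, 1058 and 1078 CPM in CCS1477-treated H2023, against 3106, 3002 and 3043 CPM in DMSO-treated H2023. Their differences were 0.95 ± 0.09 and 0.69 ± 0.06 (adjusted p = 5.17e-06 and 2.19e-06). Within the aldo-keto reductases, AKR1C1, AKR1C2 and AKR1C3 fell further in H460, with differences of -0.50, -0.47 and -0.50, though their near-identical sequences make the split between them uncertain. NQO1, the classical NRF2 target, stood at 0.04 in H460, short of the test, and rose by 0.24 in H2023. PTGR1 and EPHX1 changed in opposite directions, PTGR1 by 0.11 in H460 and -0.20 in H2023, and EPHX1 by -0.46 in H460 and 0.11 in H2023.

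Antioxidant genes of glutathione, thioredoxin and iron leaned to a lower response in H460. Of 19, 10 differed (52.6%, against 30% of all tested genes), 8 of them lower (median -0.18). In H460, 8 rose and 7 fell, and in H2023, 9 rose and 2 fell. Among all tested genes, 30.4% rose and 28.1% fell in H460, and 28.7% rose and 31.7% fell in H2023. PRDX1, a peroxiredoxin, had 1915, 1757 and 1859.7 CPM in CCS1477-treated H460, against 1458, 1521 and 1542 CPM in DMSO-treated H460, and 2426, 2485 and 2553 CPM in CCS1477-treated H2023, against 1293, 1255 and 1321 CPM in DMSO-treated H2023. SQSTM1, the autophagy receptor that also binds KEAP1, had 2386, 2150.3 and 2055 CPM in CCS1477-treated H460, against 1589.9, 1622 and 1656 CPM in DMSO-treated H460, and 2636, 2707 and 2631 CPM in CCS1477-treated H2023, against 1227, 1257 and 1254 CPM in DMSO-treated H2023. Both rose in each line and rose further in H2023, with differences of -0.68 ± 0.06 and -0.68 ± 0.07 (adjusted p = 4.71e-06 and 1.27e-05). GCLC, the catalytic subunit of glutathione synthesis, and HMOX1, heme oxygenase, rose in H460 by 0.32 and 0.44 without a call in H2023. TXNRD1 rose by 0.52 in H460 and 0.49 in H2023 with no call of the difference.

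Transcripts of NRF2 and of its partners differed little. NFE2L2 had 117, 129 and 125 CPM in CCS1477-treated H460, against 126, 119 and 128 CPM in DMSO-treated H460, and 139, 131 and 121 CPM in CCS1477-treated H2023, against 155, 157 and 157 CPM in DMSO-treated H2023. It did not pass the test in H460 (-0.08) and fell in H2023 (-0.31), and its difference of 0.23 ± 0.07 (adjusted p = 0.027) lost its call when single libraries were left out. KEAP1 fell in both lines and its difference of 0.12 ± 0.09 was not called (adjusted p = 0.31, 95% interval -0.06 to 0.31). EP300, which encodes p300, differed by 0.19 ± 0.07 (adjusted p = 0.0499), a call that several other settings removed, and CREBBP, which encodes CBP, differed by 0.12 ± 0.07 with no call (adjusted p = 0.25). Of 27 genes for p300, CBP, BET proteins, P-TEFb and deacetylases, 6 differed (22.2%, against 30% of all tested genes), and 3 without replicate 1 of CCS1477-treated H460.

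**Figure D3:**
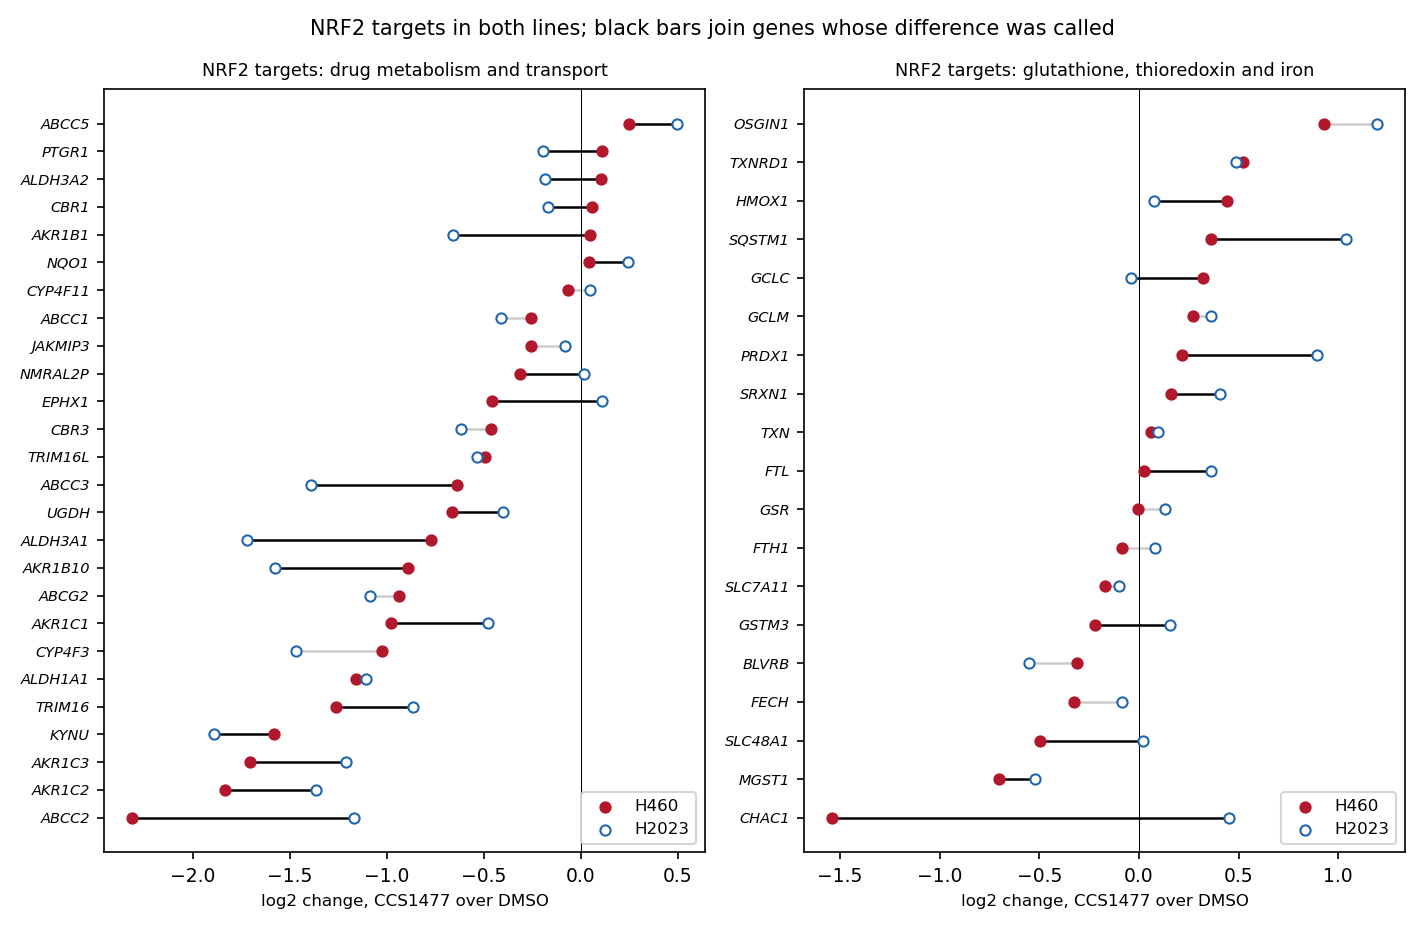
Log2 change of CCS1477 over DMSO of each tested NRF2 target in H460 (filled) and in H2023 (open), with black bars where the difference was called and grey bars where it was not. Most drug metabolism genes lie below 0 in both lines, with ABCC2 lower in H460 and ALDH3A1 and AKR1B10 lower in H2023.

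Growth factor genes gave some of the larger differences. Of 14 tested EGF receptor family, MET, FGF receptor and ligand genes, 11 differed (78.6%, against 30% of all tested genes). Of the 11, 9 were higher in the H460 response. The list's median was 0.69, and 11 were called without replicate 1 of CCS1477-treated H460 as well. The median change was 0.52 in H460 and -0.52 in H2023. Among ligands, TGFA rose by 1.64 in H460 and 0.38 in H2023, HBEGF rose by 1.04 in H460 and stood at 0.19 in H2023, and BTC rose in H460 (0.38) and fell in H2023 (-0.83). EGF itself went the other way, at -0.31 in H460 and 0.33 in H2023. Among receptors, FGFR4 rose in H460 (1.58) and fell in H2023 (-0.37), FGFR3 rose in both lines, and MET fell with changes of -0.41 in H460 and -0.91 in H2023. EGFR fell in both lines, at -0.65 in H460 and -0.67 in H2023, with a difference of 0.02 ± 0.06 and a 95% interval of -0.10 to 0.14.

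Feedback genes downstream of these receptors leaned the same way. Of 19 ERK feedback and ETS targets, 10 differed (52.6%, against 30% of all tested genes), 7 of them higher in the H460 response. DUSP2, a phosphatase of ERK, and SPRY2, an inhibitor of receptor signalling, rose in H460 by 0.54 and 0.43 and fell in H2023 with log2 changes of -0.62 and -0.45. ETV1 fell further in H460 and ETV4 fell further in H2023, with differences of -0.66 and 0.61. Immediate-early genes differed in both directions, with KLF6 at 0.83 and KLF2 at -1.28. Of 17, 7 were called (41.2%, against 30% of all tested genes), or 10 without replicate 1 of CCS1477-treated H460.

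Of 23 tested adhesion genes, 17 differed (73.9%, against 30% of all tested genes), 14 of them higher in the H460 response. The list's median was 0.36, and 17 were called without replicate 1 of CCS1477-treated H460. ITGA3 and ITGA2, alpha chains that pair with beta 1, rose in H460 by 1.07 and 0.41 and fell in H2023 with log2 changes of -0.59 and -0.36. LAMA3, a laminin chain of the epithelial basement membrane, did not pass the test in H460 and fell in H2023, with a difference of 1.13. CAV1, the scaffold of caveolae, fell in both lines, at -1.90 in H460 and -1.94 in H2023, with a 95% interval of the difference of -0.07 to 0.15. ITGB3 rose by 2.31 in H460 and 2.29 in H2023 with no call of the difference, but its interval of -0.84 to 0.87 was wide.

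Epithelial genes could be compared for 11 of 29, since 14 passed the filter in H2023 alone. Of the 11, 7 differed (63.6%, against 30% of all tested genes), all higher in the H460 response. The list's median difference was 0.72, although the medians of the changes themselves lay close, at -0.08 in H460 and -0.11 in H2023. DSP and OCLN, components of desmosomes and tight junctions, rose by 1.40 and 1.72 in H460. In H2023, OCLN rose by 0.28 and DSP stood at 0.02, short of the test. AGR2, a secretory-pathway disulfide isomerase, fell in both lines, with log2 changes of -1.51 in H460 and -3.27 in H2023. KRT19 had 1166, 909 and 885 CPM in CCS1477-treated H460, against 683, 673 and 704 CPM in DMSO-treated H460, and 54.6, 55.4 and 53.7 CPM in CCS1477-treated H2023, against 124, 137 and 136 CPM in DMSO-treated H2023. This simple-epithelium keratin rose in H460 and fell in H2023, with a difference of 1.77 ± 0.11 (adjusted p = 1.92e-07).

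Of 13 tested cytokine and other genes under NF-kB, 9 fell and 2 rose in H460, and 11 fell and 1 rose in H2023. Over all tested genes, 28.1% fell in H460 and 31.7% in H2023. In both lines, 9 fell. Of the 13, 7 differed (53.85%, against 30% of all tested genes), 6 of them higher in the H460 response (median 0.61). Without replicate 1 of CCS1477-treated H460, 7 differed as well. CXCL8, the neutrophil chemokine interleukin-8, had 59.1, 44.5 and 50.6 CPM in CCS1477-treated H460, against 76.6, 75.8 and 83.3 CPM in DMSO-treated H460, and 1.17, 1.84 and 1.52 CPM in CCS1477-treated H2023, against 9.37, 8.93 and 10.3 CPM in DMSO-treated H2023, with a difference of 1.84 ± 0.18 (adjusted p = 8.75e-06). CXCL1 and CXCL5 fell in both lines, with differences of 0.91 and 1.51. BIRC3, an inhibitor of apoptosis whose promoter is printed above, was the member that crossed: it had 3.90, 3.15 and 3.48 CPM in CCS1477-treated H460, against 2.40, 2.15 and 2.65 CPM in DMSO-treated H460, and 56.4, 62.3 and 55.5 CPM in CCS1477-treated H2023, against 149, 155 and 149 CPM in DMSO-treated H2023. TNFAIP3, the feedback inhibitor A20, fell further in H460, with a difference of -0.47.

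**Figure D4:**
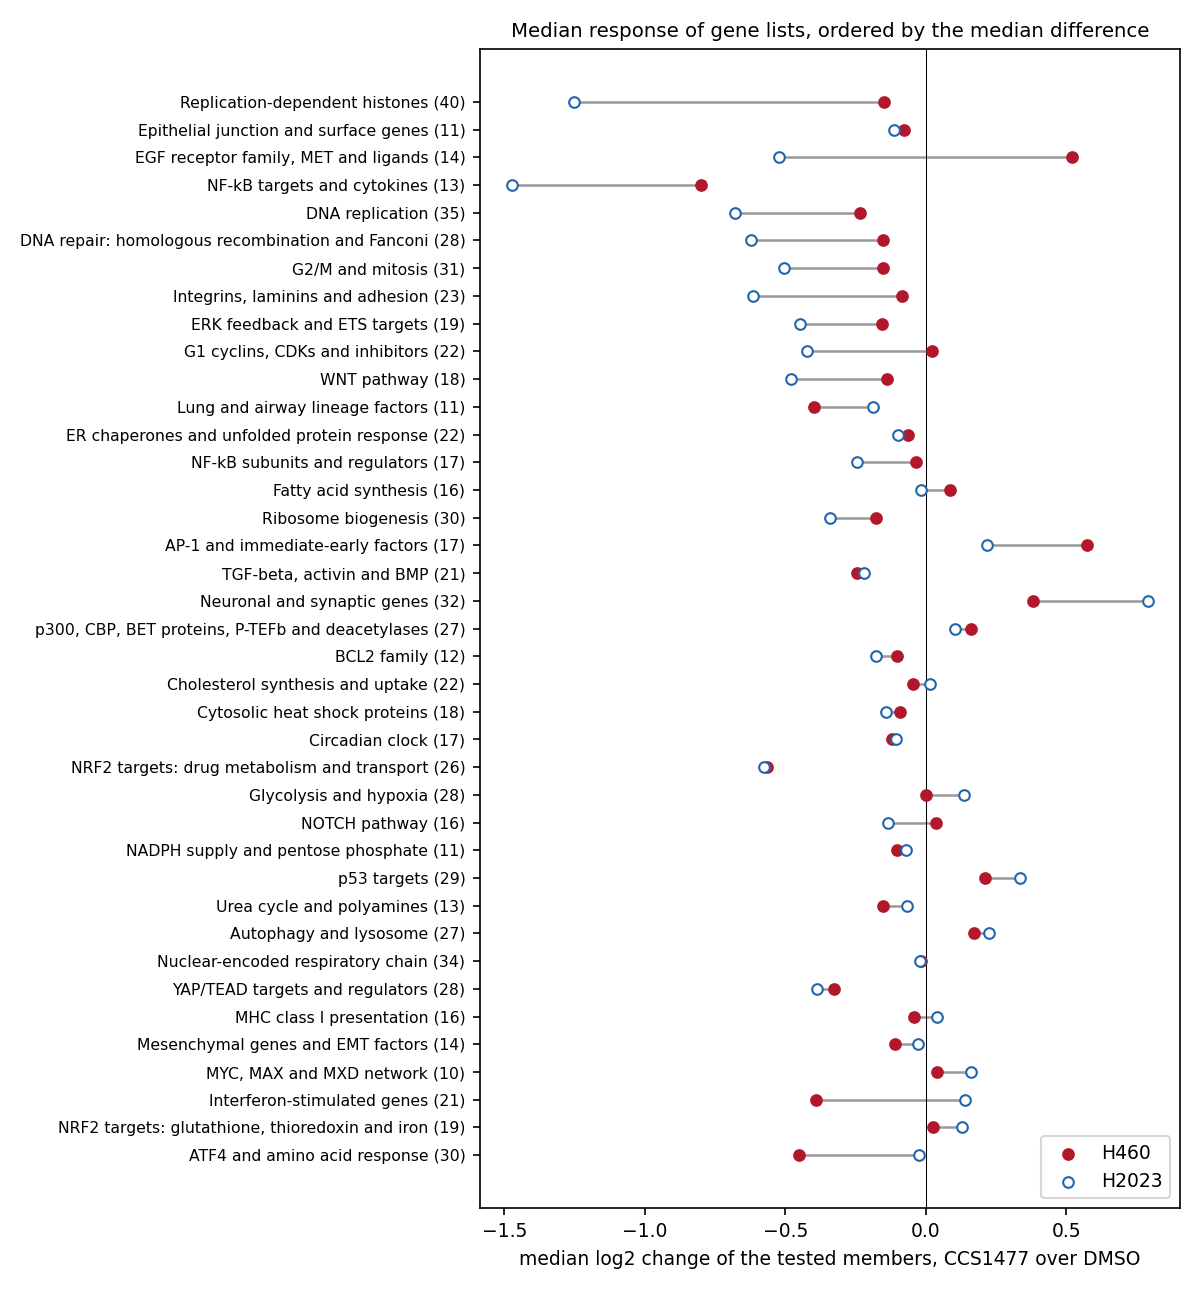
Median log2 change of CCS1477 over DMSO of the tested members of gene lists (number in brackets) in H460 (filled) and in H2023 (open), ordered by the median difference. The mitochondrially encoded list (median difference -0.95), the cell type markers, and the short lists of keratins and of NRF2, KEAP1 and small MAF factors are not drawn. Histones stood at -0.15 in H460 and -1.25 in H2023, the growth factor list on either side of 0, and the ATF4 list, at the bottom, at -0.45 in H460 and -0.02 in H2023.

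YAP/TEAD, TGF-beta and p53 genes split in both directions, where 30% of all tested genes differed, 18% higher and 12% lower. Of 28 YAP/TEAD genes, 18 differed (16 without replicate 1 of CCS1477-treated H460), 8 higher and 10 lower in the H460 response, with NT5E, a cell-surface nucleotidase, at 1.55, and CCN2 (CTGF), a matricellular protein, at -1.26. Of 21 TGF-beta, activin and BMP genes, 11 differed, 6 higher and 5 lower. Of 29 p53 targets, 15 differed, 7 higher and 8 lower, and the leading members were BBC3 and TP53INP1, which are proapoptotic. TP53INP1 rose by 0.94 in H460 and 2.40 in H2023, and BBC3 stood at -0.11 in H460, short of the test, and rose by 1.45 in H2023. CDKN1A (p21), the inhibitor of cyclin-dependent kinases, rose by 0.85 in H460 and 1.28 in H2023, with a difference of -0.43. Within the BCL2 family, BCL2L1, the antiapoptotic BCL-XL gene, differed by 1.08 ± 0.08.

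Of 32 tested neuronal and synaptic genes, 17 rose and 4 fell in H460, and 23 rose and 4 fell in H2023, against 30.4% of all tested genes rising in H460 and 28.7% in H2023. In both lines, 14 rose. Of the 32, 21 differed (65.6%, against 30% of all tested genes), 9 higher and 12 lower in the H460 response. Besides KIF1A, ENO2, the neuronal enolase, rose further in H460, with a difference of 0.97. SCN9A and NEFL, a sodium channel and a neurofilament chain, rose in H2023 by 2.03 and 1.02. In H460 they stood at -0.26 and 0.06, and the fall of SCN9A lost its call under scaling by library totals. GAP43, a growth cone protein, fell in H460 (-0.66) and rose in H2023 (0.71). AMIGO3, PCDH19, NGFR and BAIAP3 rose in both lines by changes of 4.62, 3.41, 3.94 and 3.97 in H460 and 4.46, 3.20, 4.29 and 3.64 in H2023, and none of these 4 had a called difference.

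A response that is not called as different is not thereby alike, so likeness was set by the interval. For 6533 genes the 95% interval of the difference lay within ±0.5 on the log2 scale. Of these, 97 (0.76% of all tested genes) were also called in each line and changed by at least 1 in the same direction in both, 41 rising and 56 falling. NPTX2, a secreted pentraxin of synapses, had 78.4, 64.9 and 63.4 CPM in CCS1477-treated H460, against 10.7, 10.9 and 11.4 CPM in DMSO-treated H460, and 73.9, 74.7 and 77.1 CPM in CCS1477-treated H2023, against 10.3, 11.1 and 11.0 CPM in DMSO-treated H2023. It rose by 2.55 in H460 and 2.73 in H2023, with a difference of -0.17 ± 0.10 (95% interval -0.40 to 0.05). Without replicate 1 of CCS1477-treated H460 that difference was -0.27 and called (adjusted p = 0.023).

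PNPLA2, the lipase that starts triglyceride breakdown, rose by 1.91 in H460 and 1.82 in H2023. TGFB2, a TGF-beta ligand, had 8.16, 7.97 and 7.58 CPM in CCS1477-treated H460, against 56.7, 46.8 and 44.4 CPM in DMSO-treated H460, and 4.17, 4.48 and 4.67 CPM in CCS1477-treated H2023, against 24.1, 27.3 and 25.0 CPM in DMSO-treated H2023. It fell with log2 changes of -2.69 in H460 and -2.50 in H2023, and the 95% interval of its difference was -0.46 to 0.10. TNS2, a tensin of focal adhesions, fell with changes of -2.21 in H460 and -2.13 in H2023. CPLX2, a complexin of synaptic vesicle release, fell with changes of -2.85 in H460 and -3.15 in H2023, and its small difference of 0.30 ± 0.09 passed the test (adjusted p = 0.019).

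Several genes of interest were measurable in one line alone and have no difference. In H2023, CDH1 (E-cadherin) averaged 8.11 CPM with CCS1477 and 47.4 CPM with DMSO. HGF, the ligand of MET, averaged 13.2 CPM with CCS1477 and 87.0 CPM with DMSO, and the WNT ligand WNT7B 23.4 CPM with CCS1477 and 154 CPM with DMSO. The EGF receptor ligand EREG averaged 7.46 CPM with CCS1477 and 44.3 CPM with DMSO. All 4 fell in H2023. In H460, the mesenchymal cadherin CDH11 averaged 291 CPM with CCS1477 and 597 CPM with DMSO, and the cytokine gene IL6 averaged 9.96 CPM with CCS1477 and 24.4 CPM with DMSO. All of these examples were lower with CCS1477 and were chosen after their values were seen, while other genes measured in one line alone rose. Among shared rows that passed in one line alone, CCS1477 changed 219 of 429 in H460 (51%, 76 rising and 143 falling) and 444 of 980 in H2023 (45.3%, 242 rising and 202 falling). Among rows of one table only, which include CDH1, HGF, CDH11 and IL6, it changed 211 of 318 in H460 (66.4%, 36 rising and 175 falling) and 451 of 823 in H2023 (54.8%, 156 rising and 295 falling).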

How the data were processed

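RNA-seq was measured in cultured lung cancer cells, with 3 libraries per line and treatment. Per the labels' protocols, libraries came from a directional MGIEasy kit and were read as paired ends of 150 bp. No aligner, counter, strand setting or normalization software is given in the sources used here, and the genome build is GRCh38, per the submitters' processing notes. The deposited values are log2 expression values per gene. From the values, each equals the log2 of a whole number of reads times a step fixed for its library, plus a constant of 4, so the reads behind them could be recovered. All values up to 1000 reads came out whole within 0.1. CPM are recovered reads scaled to 1000000 over all rows of a library. The constant shrinks the change of low genes.

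Rows were matched by Ensembl ID without version, since 321 of 15468 shared IDs differ in version between the tables. Because the deposited unit is log2 values and not counts, limma 3.58.1 in R 4.3.3 was fitted to them with an intensity trend, with 4 group means over 12 libraries. The difference of differences was tested two-sided with Benjamini-Hochberg adjustment over 12769 genes at 0.05. Each line had to have 3 or more of its 6 libraries at 1 CPM or above for a gene to enter. Every adjusted p in the text is from limma. The fit was also run on simulated libraries, in which only a small set of genes changed, in CCS1477-treated H460 alone, and no library stood apart. That simulation checks the working of the fit and cannot show how it performs where most genes change.

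The genes and gene lists were chosen with earlier results of these data known. Genes named by rule are those with the 12 highest and 12 lowest differences, the 8 leading crossings in each sense, 4 like rises and 4 like falls, up to 5 members per list with the smallest p, members that crossed, and the 3 leading rises and falls measured in one line alone, most with at least 5 CPM. Some genes the rule or a list names are not reported here, and other members named are further examples chosen after their values were seen. Counting intervals cover counting error only. Promoter sequences are from RefSeq (GRCh38.p14). The closing section gives the effect of other scalings, filters, constants, tests and left-out libraries.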

Additional observations from a re-analysis of the deposited data

Results flagged for a closer look

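Each result here is a difference between the H460 and H2023 responses that was tested by the interaction itself, and no explanation was weighed. The response to CCS1477 differed for 3829 genes, and 486 genes had called changes of opposite direction. Among the genes chosen by the size of their crossing, those that rose in H460 and fell in H2023 differed by 2.57 for ARHGAP26, 2.01 for ITGB4, 1.73 for ZNF703, 1.70 for COL27A1, 1.47 for FOSL2, 1.37 for DPYD and 1.33 for TGFBR2 on the log2 scale. Those that fell in H460 and rose in H2023 differed by -3.05 for PAG1, -2.81 for CDH7, -2.51 for FZD4, -2.02 for TUBB4A, -1.81 for FAM210B, -1.52 for WDR25, -1.47 for DDIT4L and -1.42 for VWA5A. With 3 libraries per group, no single library was tested for standing apart.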

How the results depend on the processing

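The number of genes whose response differed was 3829. It was 3818 with relative log expression size factors, 3903 with library totals, 3859 with trimmed means, 3908 on one common CPM scale, 3711 with limma-voom on recovered reads, 4460 with array weights, 3604 in a fit of all 18 libraries and 4449 with transcript rows added. Constants of 1 and 10 gave 3798 and 3834. Filters gave 3927 with none, 3951 with 1 CPM in 3 of 12 libraries and 3664 with 1 CPM in all 12. Rows of the same ID version gave 3747, an alternative chosen after seeing the data. Of the called genes, 84.59% to 99.5% were also called under each setting. Leaving out single libraries gave 3342 to 3904 differing genes, 6814 to 7463 changed in H460, 7168 to 8050 changed in H2023, 410 to 510 of opposite direction, and 83 to 98 with like large responses. Counting only absolute values of at least 1 gave 535 differing genes, 863 changed in H460, 928 changed in H2023 and 11 of opposite direction.

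The labels do not say whether replicate numbers pair the libraries. Within a line, same-numbered CCS1477 and DMSO deviations correlated between 0.013 and 0.103, and differently numbered ones between -0.084 and 0.057. These values do not settle whether the numbers pair the libraries. With the replicate number as a block, 3578 genes differed and 486 were of opposite direction.

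Over 6536 recomputed differences of the 253 genes chosen by rule or list, 6393 kept their side of the threshold. The call was lost in 141 and gained in 2. Direction was compared only where the main fit or the alternative made a call, and there 0 reversed. Of the 253 genes, 243 were called in the main fit, and the rule chose many for a large difference or a small p. Their calls were therefore likely to hold, and these counts do not measure how well calls of other genes hold. Over all called genes, the share called again was as low as 84.59%, without replicate 2 of DMSO-treated H2023. Uncalled differences near 0 could change sign. PNPLA2 stood at -0.01 without replicate 1 of CCS1477-treated H460 and at 0.18 without replicate 3. Calls of EP300, NFE2L2, REL, HLA-E and PSMB8 were among those lost when single libraries were left out. Of 588 recomputed list medians, 545 stayed close and 43 moved; the medians of the NRF2 drug metabolism, NADPH, keratin, BCL2 and neuronal lists changed sign in some. Counting error limits genes near 1 CPM, more so in the shallower H2023 libraries.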

Other observations

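Circadian clock genes split between the lines. Of 17 tested, 12 differed (70.6%, against 30% of all tested genes), 7 higher and 5 lower in the H460 response. Without replicate 1 of CCS1477-treated H460, 9 differed, 6 higher and 3 lower. The median difference was near 0 (-0.00). BMAL1 and BMAL2, activators of the clock, rose in H460 by 0.64 and 0.49 and fell in H2023 with log2 changes of -0.36 and -0.22. PER2, a clock repressor, fell in both lines and further in H2023, with a difference of 1.31. RORA, a nuclear receptor that activates clock genes, differed by -1.91, and its fall in H460 lost its call under scaling by library totals.

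Genes of energy and lipid metabolism held some large single differences. Of 28 glycolysis and hypoxia genes, 14 differed (50%, against 30% of all tested genes), 7 in each direction. EGLN1, the oxygen-sensing prolyl hydroxylase, and HK1, a hexokinase, rose in H460 by 0.53 and 0.35 and fell in H2023 with log2 changes of -0.68 and -0.23, while PDK1, which restrains pyruvate oxidation, fell in H460 (-0.81) and rose in H2023 (0.56). ACSL1, a fatty acyl-CoA synthetase, rose by 0.30 in H460 and 2.17 in H2023. CPS1, the first enzyme of the urea cycle, fell with log2 changes of -2.33 in H460 and -3.08 in H2023. Of 27 autophagy and lysosome genes, 16 differed, with NPC1, a lysosomal cholesterol carrier, rising in H460 (0.31) and falling in H2023 (-0.73), and MAP1LC3B and WIPI1, of autophagosome formation, rising in both lines and further in H2023.

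Interferon-stimulated genes differed for 9 of 21, 4 higher and 5 lower, where 30% of all tested genes differed, 18% higher and 12% lower. OAS1 and OAS3, antiviral synthetases, fell further in H2023, with differences of 1.26 and 0.72. RELB, an NF-kB subunit, rose by 1.02 in H460 and stood at -0.26 in H2023 without a call. Of 18 WNT pathway genes, 8 differed, 7 higher in the H460 response, with TCF7 at 1.43 and LRP6 at 0.65. Of 15 mitochondrially encoded genes, 2 differed, the ribosomal RNAs MT-RNR1 and MT-RNR2, and limma-voom on recovered reads called neither (adjusted p = 0.42 for MT-RNR1 and 0.41 for MT-RNR2). Replicate 1 of CCS1477-treated H460 had 6.55 CPM of MT-RNR1, against 249 and 117 CPM in the other CCS1477 libraries of H460. The list's median difference was -0.95, and it was -0.27 without replicate 1 of CCS1477-treated H460, the library with the low mitochondrial share. Without that library, 5 of the 15 genes differed, all 5 lower in the H460 response. Then 3 fell in H460 and 5 rose in H2023, against 3 and 0 with all libraries.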
